A study of Arabidopsis thaliana with 44 samples.

Results

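The 35 genes described here encode WRKY transcription factors of Arabidopsis thaliana that are known from responses to pathogens, wounding, ageing, heat or nutrient shortage. They were taken by locus from the 34262 genes counted in each library of an RNA-seq series on the sulfated peptide PSY5. All 35 loci had a row in every library. The locus of each member is fixed, for example AT4G31800 for WRKY18, AT1G80840 for WRKY40, AT2G38470 for WRKY33, AT4G01250 for WRKY22, AT2G24570 for WRKY17, AT4G23810 for WRKY53 and AT3G56400 for WRKY70. The members fall into WRKY subgroup I (WRKY25, WRKY26 and WRKY33), IIa (WRKY18, WRKY40 and WRKY60), IIb (WRKY6, WRKY31, WRKY42, WRKY47 and WRKY72), IIc (WRKY8, WRKY23, WRKY28, WRKY45, WRKY48, WRKY50, WRKY51 and WRKY75), IId (WRKY7, WRKY11, WRKY15, WRKY17 and WRKY39), IIe (WRKY22 and WRKY29) and III (WRKY30, WRKY38, WRKY41, WRKY46, WRKY53, WRKY54, WRKY55, WRKY62 and WRKY70). Another 37 WRKY genes in the same files were set beside them. Subgroup counts below cover members only, so other WRKY genes of the same subgroup are not in them. Members and lists were chosen with earlier results of these data known. Contrasts of members with the other WRKY genes are therefore descriptions and give no support.

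The series holds 44 libraries in 13 groups, all from plants labelled as 7 days old. Roots were tpst-1 given PSY5 at 1 µM, tpst/psyr1,2,3 and tpst-1 (n = 3 libraries each). Shoots were tpst-1 given PSY5 at 1 µM, tpst/psyr1,2,3, tpst-1, psyr1,2,3 and wild type (WT, n = 4 each). Whole tpst-1 seedlings were taken before PSY5 (0 h) and 2 h, 6 h, 24 h or 7 d into treatment with it at 1 µM (n = 3 each). Every root and seedling library therefore carries tpst-1, with no WT beside it. The mutant tpst-1 is affected in TPST, the tyrosylprotein sulfotransferase that sulfates PSY peptides and several other peptide hormones, so it is not specific to PSY. The psyr1,2,3 triple mutant is affected in receptors of PSY peptides. The series title asks how a peptide ligand balances growth against stress responses. Nothing in the labels says whether replicates came from separate plants or cultures, so p-values measure the spread between these libraries, which may be technical.

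WRKY proteins carry a conserved WRKYGQK stretch and a zinc finger, and they bind the W-box, a short DNA element with the core TTGAC. Many WRKY genes are switched on within minutes to hours of a stress, downstream of calcium signals and MAP kinase cascades, and many WRKY promoters hold W-boxes themselves, so that members regulate each other. WRKY33 is needed for resistance to necrotrophic fungi and for camalexin synthesis, WRKY18, WRKY40 and WRKY60 act together in immunity and abscisic acid responses, and WRKY53, WRKY54 and WRKY70 act in leaf senescence and salicylic acid signalling.

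The stretch of 250 bases before the annotated start is shown here for 5 members. All 5 genes fell in both root comparisons and at the 4 seedling times below. Only some of them hold the W-box forms TTGACC or TTGACT in this stretch. Sequences are from the TAIR10.1 assembly with the RefSeq annotation, written 5′ to 3′ on the strand of the gene. Capitals mark TTGACC or TTGACT, or their reverse complements GGTCAA and AGTCAA. The core TTGAC followed by another base was neither marked nor counted. The WRKY40 stretch holds such a core on the other strand (tgtcaa). The windows are chr2:16107985-16108234 (plus strand) for WRKY33, chr2:10439470-10439719 (minus strand) for WRKY17, chr4:12393983-12394232 (minus strand) for WRKY53, chr1:30383311-30383560 (plus strand) for WRKY40 and chr4:524250-524499 (minus strand) for WRKY22.
WRKY33: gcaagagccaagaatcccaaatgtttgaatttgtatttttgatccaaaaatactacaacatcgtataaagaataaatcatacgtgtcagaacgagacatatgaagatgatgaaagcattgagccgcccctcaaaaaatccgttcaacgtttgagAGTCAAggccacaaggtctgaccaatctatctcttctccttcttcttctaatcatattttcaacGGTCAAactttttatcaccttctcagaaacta
WRKY17: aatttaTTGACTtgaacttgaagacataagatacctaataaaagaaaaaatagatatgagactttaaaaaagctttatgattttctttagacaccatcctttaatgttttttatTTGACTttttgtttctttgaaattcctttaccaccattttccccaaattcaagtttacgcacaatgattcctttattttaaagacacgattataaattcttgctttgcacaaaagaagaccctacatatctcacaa
WRKY53: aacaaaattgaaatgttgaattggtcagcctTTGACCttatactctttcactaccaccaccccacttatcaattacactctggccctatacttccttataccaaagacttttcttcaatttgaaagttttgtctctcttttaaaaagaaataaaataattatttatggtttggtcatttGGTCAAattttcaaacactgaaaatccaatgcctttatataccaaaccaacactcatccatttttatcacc
WRKY40: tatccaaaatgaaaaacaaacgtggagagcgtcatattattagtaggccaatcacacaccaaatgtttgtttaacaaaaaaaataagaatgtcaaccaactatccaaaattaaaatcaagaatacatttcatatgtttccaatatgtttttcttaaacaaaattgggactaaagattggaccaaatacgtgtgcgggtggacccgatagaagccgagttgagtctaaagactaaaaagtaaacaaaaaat
WRKY22: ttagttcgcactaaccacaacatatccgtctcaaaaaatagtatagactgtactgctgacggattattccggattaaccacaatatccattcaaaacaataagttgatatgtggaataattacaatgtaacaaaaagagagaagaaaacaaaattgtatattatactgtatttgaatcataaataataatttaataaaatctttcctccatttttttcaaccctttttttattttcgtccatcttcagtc

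WRKY33, WRKY17 and WRKY53 each hold 2 of these motifs in the window, and WRKY40 and WRKY22 hold 0. Of the 35 members, 16 (45.7%) held at least 1 motif on either strand, against 9 of 37 other WRKY genes (24.3%) and 7797 of 27443 protein-coding genes on the 5 chromosomes (28.4%). Members with more than 1 motif were 9 (25.7%), against 6.18% of protein-coding genes. The motif did not separate members that moved from members that did not: 6 of the 15 that fell with PSY5 in roots held one (40.0%), against 7 of the 15 tested members that did not pass there (46.7%). These are counts of letters in a window, described with no test, and say nothing of binding.

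Libraries held 3.21 to 4.13 M (mega) counted reads in roots, 8.61 to 16.8 M in shoots and 9.88 to 15.4 M in seedlings. Marker levels matched the tissue labels: 5 photosynthesis genes summed to 11.6 to 104 TPM in roots and 30353 to 42039 TPM in shoots, and 5 root genes summed to 4519 to 6093 TPM in roots and 75.4 to 336 TPM in shoots. TPST transcript was present in every group, at 6.70 ± 1.59 TPM in tpst-1 shoots and 8.55 ± 0.605 TPM in WT shoots (SD, n = 4 each), and the labels do not say what the allele changes, so this level does not check the genotype. The annotation used here names no gene as PSYR1, PSYR2 or PSYR3, and the receptors were not checked. Among tpst-1 shoots, replicate 1 stood apart. It had 16.8 M reads against 10.03 to 13.5 M, and its 9 circadian clock genes summed to 75.9 TPM against 156 to 174 TPM. Replicate 4 of the same group had the highest summed member level, 576 TPM against 220.4 to 351 TPM. Shoot values that moved by more than 1.5 times, or calls that were lost, without either library are given with and without it.

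Genes were tested with edgeR's quasi-likelihood test, one fit per tissue, with Benjamini-Hochberg adjustment over all tested genes and a threshold of 0.05. A gene needed 1 TPM in at least 3 root or seedling libraries or 4 shoot libraries. The filter left 30 of the 35 members in roots, 27 in shoots and 32 in seedlings. WRKY55 passed in no tissue, with at most 0.629 TPM in any library. A member that entered through a group where it was high had more room to differ, so counts over tested members are descriptions. Where groups of a called member are said to be apart or not to overlap, the same libraries made the call. No share of such genes over all genes was counted. TPM is a level per transcript length and per library, while every fold change below is a log2 ratio of counts ± SE.

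**Figure D1:**
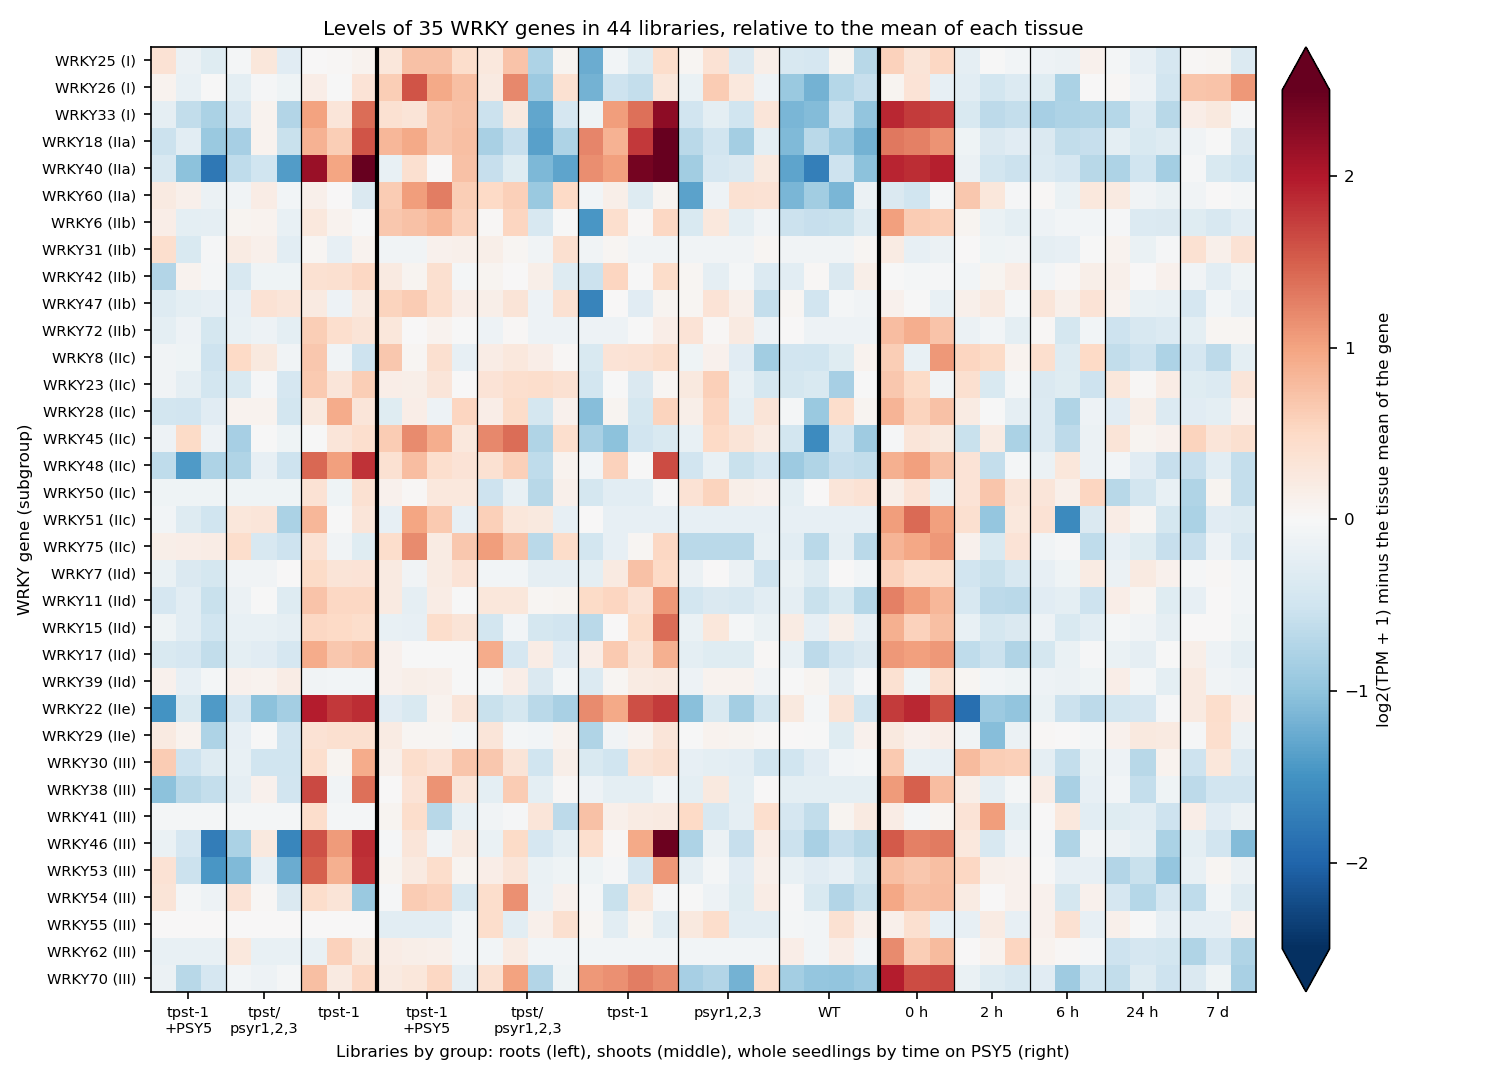
Levels of the 35 members in all 44 libraries, as log2(TPM + 1) minus the mean of that gene in that tissue (colour, red higher and blue lower). Rows are genes with their subgroup and columns are libraries by group. The tpst-1 root, tpst-1 shoot and 0 h seedling columns are reddest for WRKY18, WRKY22, WRKY33, WRKY40 and WRKY46.

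PSY5 lowered 15 WRKY members in tpst-1 roots and raised 0. These were 15 of 30 tested, and of all 19958 genes tested 7.69% fell and 7.52% rose. The median log2 fold change was -0.81 over tested members, -0.17 over 26 other WRKY genes tested and 0.0018 over all genes tested. PSY5-treated and untreated libraries did not overlap for any of the 15. The 15 were picked by the test on these same libraries, so this adds no support. In whole roots, fewer cells that express a gene and less transcript per cell cannot be told apart.

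Loss of the receptors gave nearly the same set. In tpst/psyr1,2,3 roots 14 of 30 tested members fell against tpst-1 roots, where 7.5% of all genes tested fell, and 0 members rose, where 7.9% of all genes did. All 14 are among the 15 that fell with PSY5, and WRKY70 is the remaining one. Both comparisons use the same 3 tpst-1 root libraries, so the overlap is not independent. Set against each other, tpst/psyr1,2,3 and PSY5-treated tpst-1 roots differed in 0 of 30 tested members with edgeR, where 0.536% of all genes passed. At an unadjusted p under 0.05 there was 1 member with edgeR and 4 with limma on log2(TPM + 1), and DESeq2 gave no adjusted p. WRKY47 came nearest with edgeR, with 17.4 ± 3.71 TPM after receptor loss and 12.7 ± 0.611 TPM with PSY5 (difference 0.38 ± 0.15 on the log2 scale, adjusted p = 0.374). This does not show that the groups are alike.

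Subgroup IId, whose proteins bind calmodulin, held the 2 highest members in tpst-1 roots, WRKY17 and WRKY11. Of the 5 IId genes in the member set 4 fell in both comparisons. WRKY17 had 44.3, 43.3 and 37.4 TPM in tpst-1 roots given PSY5, 49.0, 47.5 and 43.2 TPM in roots of tpst/psyr1,2,3, and 111, 92.8 and 97.6 TPM in tpst-1 roots. It was lower in all 6 of those libraries, by 1.24 ± 0.09 with PSY5 (adjusted p = 6.51e-10) and by 1.15 ± 0.09 with receptor loss (adjusted p = 2.25e-09) on the log2 scale, the smallest adjusted p of any member in each. WRKY11, which acts with WRKY17 to restrain basal resistance, had 45.1, 50.9 and 41.1 TPM with PSY5, 54.7, 60.6 and 48.4 TPM in tpst/psyr1,2,3, and 101, 88.1 and 87.3 TPM in tpst-1 roots. Its groups did not overlap either (log2 fold change -0.98 ± 0.10 with PSY5, adjusted p = 1.89e-07, and -0.80 ± 0.10 with receptor loss, adjusted p = 3.25e-06). WRKY15, known from osmotic and oxidative stress, had 44.9, 40.4 and 34.2 TPM with PSY5, 42.7, 42.7 and 41.3 TPM in tpst/psyr1,2,3, and 69.7, 68.6 and 66.2 TPM in tpst-1 roots. WRKY7 had 23.3, 20.3 and 19.2 TPM with PSY5, 24.7, 24.5 and 26.4 TPM in tpst/psyr1,2,3, and 37.2, 33.1 and 33.4 TPM in tpst-1 roots. The falls of these last 2 genes were smaller, at -0.75 ± 0.10 (adjusted p = 4.68e-06) and -0.71 ± 0.10 (adjusted p = 1.71e-05) with PSY5, and at -0.73 ± 0.10 (adjusted p = 8.86e-06) and -0.51 ± 0.10 (adjusted p = 0.000829) with receptor loss. WRKY39 was the exception. It averaged 63.3 TPM with PSY5, 71.7 TPM after receptor loss and 62.3 TPM in untreated tpst-1 roots, and did not pass in either comparison.

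Subgroups IIa and I were split. WRKY40 had 6.16, 3.67 and 1.76 TPM with PSY5, 5.11, 5.72 and 2.58 TPM after receptor loss, and 41.3, 17.8 and 55.0 TPM in tpst-1 roots. That is 10.01-fold lower with PSY5 (log2 fold change -3.32 ± 0.36, adjusted p = 3.97e-07) and 8.69-fold lower with receptor loss (-3.12 ± 0.35, adjusted p = 9.54e-07). WRKY18, its partner in repressing some immune genes, had 10.6, 13.2 and 7.89 TPM with PSY5, 8.51, 16.9 and 10.5 TPM in tpst/psyr1,2,3, and 29.7, 24.7 and 49.2 TPM in tpst-1 roots. It fell by 1.72 ± 0.24 (adjusted p = 2.01e-05) with PSY5 and by 1.55 ± 0.24 (adjusted p = 7.04e-05) with receptor loss. WRKY60, the other member of IIa, averaged 40.4 TPM with PSY5, 38.9 TPM after receptor loss and 36.6 TPM in untreated tpst-1 roots, and did not pass. In subgroup I, WRKY33 had 30.8, 23.2 and 20.5 TPM with PSY5, 26.7, 38.6 and 21.4 TPM in tpst/psyr1,2,3, and 73.3, 44.8 and 97.3 TPM in tpst-1 roots. Its fall was -1.51 ± 0.21 with PSY5 (adjusted p = 1.14e-05) and -1.33 ± 0.20 with receptor loss (adjusted p = 5.26e-05). WRKY25 and WRKY26, which act with WRKY33 in heat tolerance, did not pass. WRKY25 averaged 15.6 TPM with PSY5, 15.5 TPM after receptor loss and 16.0 TPM in untreated tpst-1 roots, and WRKY26 averaged 9.32 TPM with PSY5, 8.62 TPM after receptor loss and 10.8 TPM in untreated tpst-1 roots.

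WRKY22 of subgroup IIe, placed downstream of the MAP kinase cascade of flagellin perception, had the steepest fall of any member called in either root comparison. It had 0.572, 2.39 and 0.662 TPM with PSY5, 2.32, 1.17 and 1.47 TPM after receptor loss, and 16.3, 14.0 and 14.8 TPM in tpst-1 roots. It was 12.1-fold lower with PSY5 (log2 fold change -3.59 ± 0.32, adjusted p = 3.03e-08) and 9.24-fold lower with receptor loss (-3.21 ± 0.31, adjusted p = 9.45e-08). Without PSY5 replicate 2, the highest of its group, the change with PSY5 was -4.50. WRKY29, placed in the same cascade, averaged 6.00 TPM with PSY5, 5.43 TPM after receptor loss and 8.75 TPM in untreated tpst-1 roots, and did not pass (adjusted p = 0.18 with PSY5 and 0.0741 with receptor loss).

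In subgroup III 4 of 6 tested members fell with PSY5. WRKY46, a factor of basal resistance and drought responses, had 8.86, 7.22 and 2.31 TPM with PSY5, 5.39, 12.0 and 2.54 TPM in tpst/psyr1,2,3, and 32.2, 21.9 and 38.4 TPM in tpst-1 roots (log2 fold changes -2.33 ± 0.34, adjusted p = 2.29e-05, and -2.20 ± 0.34, adjusted p = 5e-05). Without tpst/psyr1,2,3 root replicate 2 the change of WRKY46 with receptor loss was -2.94. WRKY53, a driver of leaf senescence, had 6.97, 3.27 and 1.26 TPM with PSY5, 1.90, 4.38 and 1.65 TPM in tpst/psyr1,2,3, and 16.4, 10.5 and 20.7 TPM in tpst-1 roots. It fell by 2.08 ± 0.35 with PSY5 (adjusted p = 0.000137) and by 2.60 ± 0.38 with receptor loss (adjusted p = 3.09e-05), and without PSY5 root replicate 1 its change with PSY5 was -2.79. WRKY38, a repressor of basal defence, fell in both (-2.32 ± 0.43, adjusted p = 0.000406, and -1.58 ± 0.39, adjusted p = 0.00674), but with receptor loss its groups overlapped and the call was lost by limma (adjusted p = 0.0931) and without tpst-1 root replicate 1 (adjusted p = 0.0775). WRKY70, which links salicylic acid and jasmonate responses, was at 3.21 ± 0.780 TPM with PSY5 and 6.96 ± 1.45 TPM in tpst-1 roots (-1.08 ± 0.27, adjusted p = 0.00783). That call was lost by DESeq2 (adjusted p = 0.0843) and without tpst-1 root replicate 1 (adjusted p = 0.0572). WRKY54, closely related to WRKY70, averaged 2.6 to 2.7 TPM in each group, and WRKY30 averaged 0.890 TPM with PSY5 and 1.65 TPM in tpst-1 roots, without passing.

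In subgroup IIc, WRKY48, a repressor of basal resistance, had 9.96, 5.37 and 8.98 TPM with PSY5, 9.10, 13.7 and 10.9 TPM in tpst/psyr1,2,3, and 45.2, 33.7 and 58.3 TPM in tpst-1 roots. It was 5.47-fold lower with PSY5 (-2.45 ± 0.20, adjusted p = 6.48e-09) and 4.08-fold lower with receptor loss (-2.03 ± 0.19, adjusted p = 6.46e-08). WRKY23, an auxin-responsive factor of root development, had 12.0, 10.8 and 9.02 TPM with PSY5, 9.62, 12.5 and 9.25 TPM in tpst/psyr1,2,3, and 20.7, 15.9 and 20.1 TPM in tpst-1 roots (-0.81 ± 0.16, adjusted p = 0.000792, and -0.87 ± 0.16, adjusted p = 0.000536). Among the 5 tested members of IIb only WRKY72, a basal defence gene, fell. It had 8.04, 8.71 and 6.87 TPM with PSY5, 8.33, 8.75 and 8.03 TPM in tpst/psyr1,2,3, and 15.4, 13.3 and 12.3 TPM in tpst-1 roots (-0.81 ± 0.15, adjusted p = 0.000478, and -0.77 ± 0.15, adjusted p = 0.00107). The phosphate-related factors did not pass: WRKY6 averaged 34.2 TPM with PSY5, 36.5 TPM after receptor loss and 39.9 TPM in untreated tpst-1 roots. WRKY75 averaged 11.5 TPM with PSY5, 9.49 TPM after receptor loss and 10.3 TPM in untreated tpst-1 roots, and WRKY45 averaged 4.33 TPM with PSY5, 3.13 TPM after receptor loss and 4.91 TPM in untreated tpst-1 roots. The low-level WRKY28 averaged 0.344 TPM with PSY5 and 1.55 TPM in tpst-1 roots (-1.99 ± 0.69, adjusted p = 0.0562).

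Touch-inducible genes moved with the members in roots. The 5 genes TCH2, TCH3, TCH4, STZ and ZAT12, which respond to handling and to many stresses, all fell in both comparisons, and their summed level was 151 to 328 TPM with PSY5, 200.1 to 335 TPM in tpst/psyr1,2,3 and 530.4 to 821 TPM in tpst-1 roots, with 0 of the 5 at 0 in any root library. Of 9 clock genes 4 rose in each comparison, with summed levels of 233 to 257 TPM with PSY5, 225 to 260.3 TPM in tpst/psyr1,2,3 and 183 to 218 TPM in tpst-1 roots. Photosynthesis genes, as a sign of carried-over shoot, summed to 11.6 to 23.6 TPM with PSY5, 35.9 to 104 TPM in tpst/psyr1,2,3 and 33.8 to 59.6 TPM in tpst-1 roots. The part of handling, harvest time or carry-over in the result was not tested.

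**Figure D2:**
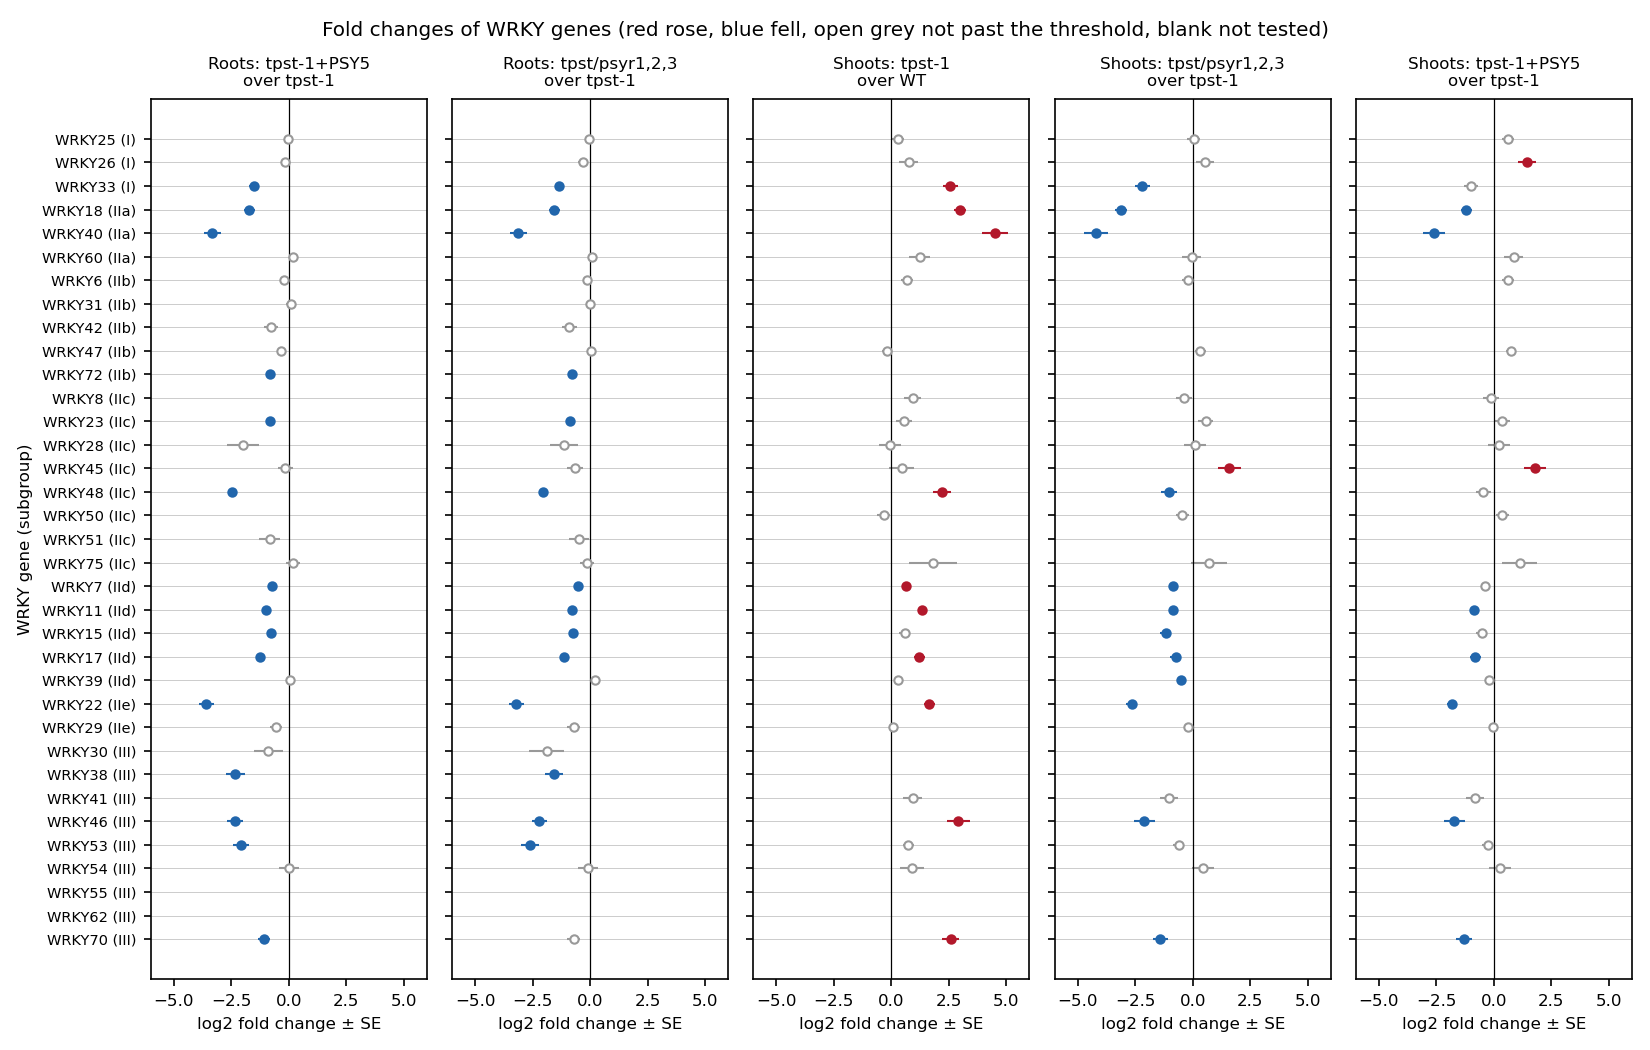
Log2 fold changes ± SE of each member in 5 comparisons, each over its control. Filled blue points fell, filled red points rose, open points did not pass and a blank means not tested. Blue points in roots with PSY5 (15) and with receptor loss (14) lie on the same rows save WRKY70, and the 10 red points in tpst-1 shoots all have a blue point in tpst/psyr1,2,3 shoots.

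In whole tpst-1 seedlings 17 members were lower 2 h after PSY5 was given, and the same 17 were lower at 6 h, 24 h and 7 d. How many of all genes tested were lower at all 4 times was not counted. Against 0 h, 17 of 32 tested members fell at 2 h, 23 at 6 h, 22 at 24 h and 22 at 7 d, while 8.01%, 8.56%, 8.63% and 10.8% of all 21069 genes tested fell at those times. The rises were 0 members at 2 h, 6 h and 24 h and WRKY26 alone at 7 d, where 4.53%, 5.89%, 5.43% and 8.53% of all genes rose at the 4 times. The median log2 fold change of tested members was -1.07, -1.15, -1.38 and -1.24 at the 4 times, and that of 22 other WRKY genes tested lay between -0.10 and -0.01. Some falls were smaller at 7 d than at the shorter times, as for WRKY33 and WRKY22 below. The 4 comparisons share the 3 libraries of 0 h, the only untreated seedlings. At 2 h, 6 h and 24 h, time in culture and PSY5 cannot be told apart. Every seedling group is labelled 7 days old, so the 7 d group is not known to be a later point of the same course. How its culture differed from that of the 0 h group is not stated.

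WRKY33 had 106, 96.2 and 94.0 TPM at 0 h, 21.1, 17.3 and 18.3 TPM at 2 h, 15.4, 15.8 and 16.3 TPM at 6 h, 16.6, 22.0 and 16.9 TPM at 24 h and 31.6, 33.2 and 27.2 TPM at 7 d. All 12 treated libraries lay below the 0 h libraries. The change was -1.71 ± 0.10 at 7 d (adjusted p = 1.44e-10) and -2.68 ± 0.11 at 6 h (adjusted p = 3.25e-13). WRKY70 had 132, 105 and 107 TPM at 0 h, 29.5, 26.4 and 25.0 TPM at 2 h, 27.2, 17.5 and 23.2 TPM at 6 h, 21.3, 26.5 and 23.0 TPM at 24 h and 25.4, 30.6 and 18.5 TPM at 7 d, a flat low level after the first 2 h. WRKY22 had 17.6, 19.3 and 15.5 TPM at 0 h, 0.492, 1.93 and 1.77 TPM at 2 h, 3.90, 2.79 and 2.51 TPM at 6 h, 2.98, 3.11 and 4.39 TPM at 24 h and 5.46, 6.45 and 5.20 TPM at 7 d. Its log2 fold change was -3.67 ± 0.28 at 2 h (adjusted p = 2.77e-09) and -1.64 ± 0.23 at 7 d (adjusted p = 2.33e-05). The 7 d libraries lay between those of 0 h and those of the shorter times.

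Other members with high levels at 0 h were low at 7 d too. WRKY40 had 8.57, 6.54 and 5.92 TPM at 7 d and 35.5, 34.4 and 36.6 TPM at 0 h (log2 fold change -2.36 ± 0.15, adjusted p = 2.22e-10). WRKY18 had 35.02, 37.3 and 29.0 TPM at 7 d and 94.6, 90.9 and 83.1 TPM at 0 h (-1.42 ± 0.09, adjusted p = 2.67e-10). WRKY46 had 7.30, 6.04 and 3.66 TPM at 7 d and 27.4, 22.4 and 23.3 TPM at 0 h (-2.12 ± 0.22, adjusted p = 3.8e-07). None of these groups overlapped. WRKY6, which did not pass in roots, had 11.7, 10.8 and 12.0 TPM at 7 d and 30.7, 23.1 and 22.6 TPM at 0 h (-1.15 ± 0.11, adjusted p = 1.26e-07). In IId, WRKY11 had 12.3, 14.5 and 13.7 TPM at 7 d and 35.8, 30.6 and 26.2 TPM at 0 h, and WRKY15 had 29.5, 29.4 and 26.9 TPM at 7 d and 55.3, 43.8 and 49.8 TPM at 0 h, falls of 1.19 ± 0.13 and 0.82 ± 0.09 (adjusted p = 6.53e-07 and 7.25e-07). In IIc, WRKY48 had 3.37, 4.41 and 3.33 TPM at 7 d and 11.1, 12.2 and 9.74 TPM at 0 h (-1.58 ± 0.22, adjusted p = 2.1e-05).

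Members with low levels followed several courses. WRKY62, which interacts with WRKY38 in repressing defence, averaged 2.496 TPM at 0 h, 1.21 TPM at 2 h, 0.932 TPM at 6 h, 0.375 TPM at 24 h and 0.222 TPM at 7 d. It passed from 6 h, with a log2 fold change of -3.49 ± 0.49 at 7 d (adjusted p = 2.32e-05), or -4.23 without 7 d replicate 2. WRKY54 averaged 3.29 TPM at 0 h, 1.59 TPM at 2 h, 1.32 TPM at 6 h, 0.696 TPM at 24 h and 0.917 TPM at 7 d, and passed at all 4 times. WRKY8, known from salt stress and antiviral defence, fell at 24 h (-2.65 ± 0.59, adjusted p = 0.00299) and 7 d (-1.97 ± 0.52, adjusted p = 0.00947). The last call was lost by limma (adjusted p = 0.0541) and without 0 h replicate 3 (adjusted p = 0.0766). WRKY26 went the other way, with 8.70, 8.88 and 11.7 TPM at 7 d and 5.30, 6.59 and 4.23 TPM at 0 h (0.78 ± 0.21, adjusted p = 0.012), a call lost without 0 h replicate 1 or 3 (adjusted p = 0.0625 and 0.0622) or 7 d replicate 3 (adjusted p = 0.086).

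Seedling calls near the threshold also rested on single libraries. WRKY54 at 2 h did not pass without any single library of 0 h or 2 h (adjusted p up to 0.105), WRKY62 at 6 h was lost without 0 h replicate 1 (adjusted p = 0.123) or any 6 h replicate, and WRKY51 at 24 h without any of the 6 libraries (adjusted p up to 0.145). WRKY51 at 6 h had a change of -1.88, or -2.79 without 6 h replicate 1. WRKY51 and WRKY75 at 6 h were lost without 6 h replicate 2 (adjusted p = 0.0521) and 6 h replicate 3 (adjusted p = 0.0534). WRKY23 at 6 h was lost without 0 h replicate 1 or 2 or 6 h replicate 3 (adjusted p up to 0.0957), WRKY39 at 6 h without 0 h replicate 1 or 3 or 6 h replicate 3 (adjusted p up to 0.0968), and both by limma. WRKY28 was lost at 24 h without any of 4 libraries and at 7 d without any of 3 (adjusted p up to 0.11), and WRKY7 at 24 h without 24 h replicate 1 (adjusted p = 0.0581). Here too all 5 touch genes fell at each time, with summed levels of 616 to 685 TPM at 0 h, 227 to 289 TPM at 2 h, 211 to 233 TPM at 6 h, 213 to 235 TPM at 24 h and 228 to 290.1 TPM at 7 d. The 5 photosynthesis genes all rose at 7 d, with summed levels of 29309 to 32532 TPM at 7 d and 23623 to 27020 TPM at 0 h, and 0 of them passed at 2 h, 6 h or 24 h. Of 5 root genes 1 fell at 2 h and 1 at 7 d, with summed levels of 602 to 642 TPM at 7 d and 711 to 925 TPM at 0 h. Of 9 clock genes 3 passed at 2 h, 4 at 6 h, 2 at 24 h and 7 at 7 d, the last being 3 that rose and 4 that fell. The part of handling, harvest time or tissue make-up in these results was not tested.

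**Figure D3:**
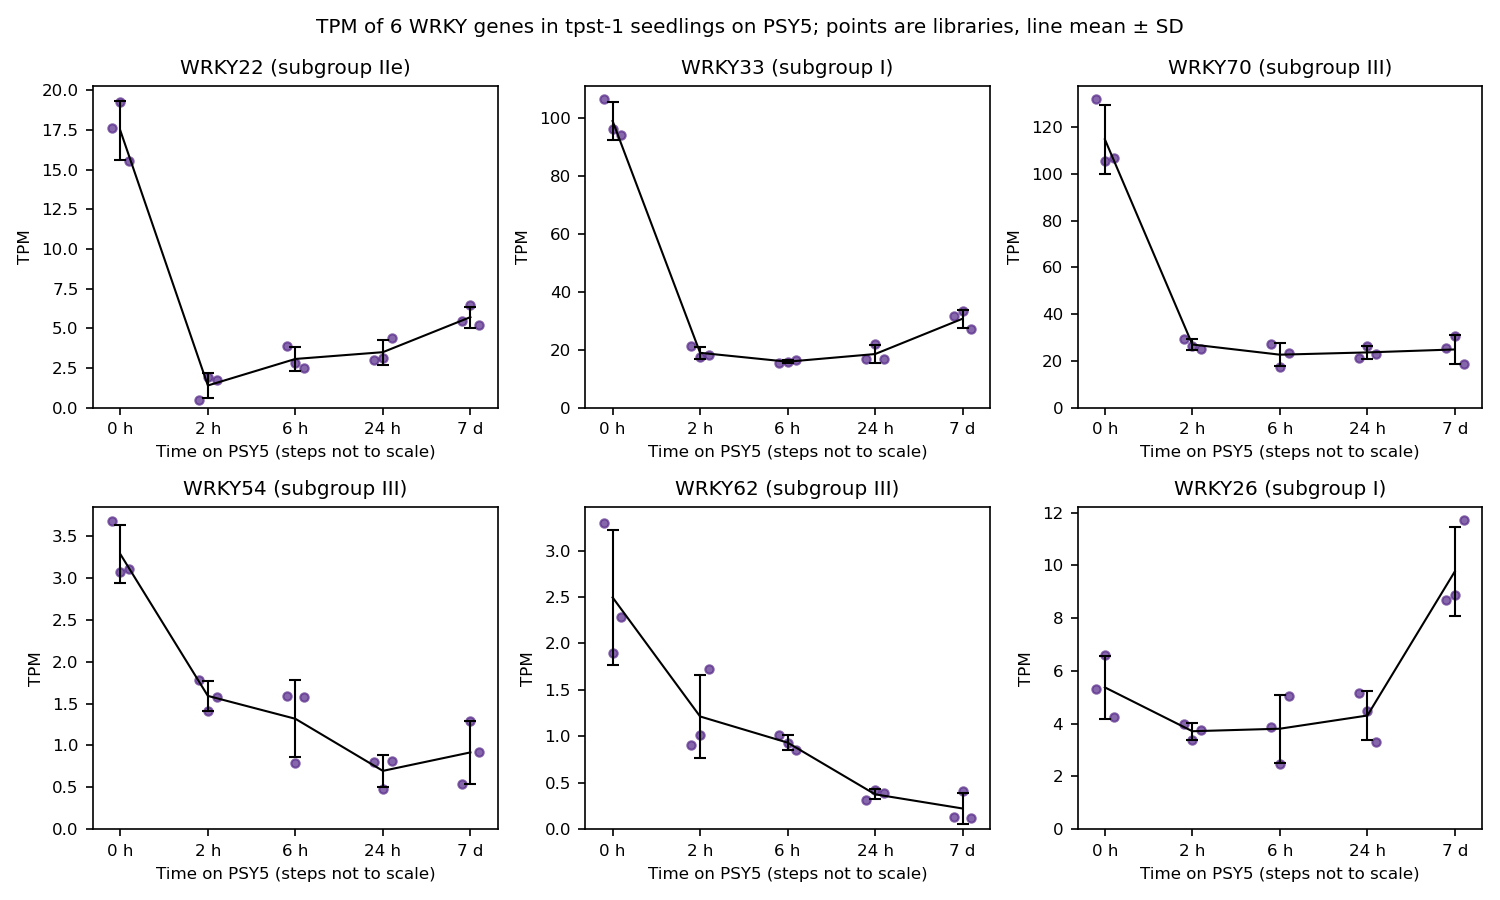
TPM of 6 members in whole tpst-1 seedlings before PSY5 (0 h) and 2 h, 6 h, 24 h or 7 d into treatment with it (points are libraries, lines join means ± SD, n = 3, time steps not to scale). All groups are labelled 7 days old, so the 7 d group is not known to be a later point of the same course. WRKY22, WRKY33 and WRKY70 are lower at 2 h than at 0 h, and WRKY62 has a lower mean at each longer time on PSY5. WRKY26 is highest at 7 d with 8.70 to 11.7 TPM.

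In shoots the tpst-1 mutant could be set against WT, and 10 of 27 tested members rose while 0 fell. Over all 20723 genes tested 7.07% rose and 2.14% fell. The median log2 fold change was 0.91 over tested members, -0.14 over 20 other WRKY genes tested and 0.0098 over all genes tested. The 10 were WRKY18, WRKY40, WRKY33, WRKY22, WRKY70, WRKY46, WRKY48, WRKY11, WRKY17 and WRKY7. Without tpst-1 replicate 1 the count was 12, and without replicate 4 it was 10.

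WRKY40 had 9.21, 8.36, 23.0 and 60.7 TPM in tpst-1 shoots, against 0.834, 0.391, 2.21 and 1.25 TPM in WT shoots. All 4 tpst-1 libraries were above all 4 of WT, and the rise was 22.6-fold (log2 fold change 4.50 ± 0.56, adjusted p = 1.09e-05), or 3.73 on the log2 scale without the high replicate 4. WRKY18 had 47.9, 37.7, 70.9 and 128 TPM in tpst-1 shoots, against 8.83, 12.1, 10.2 and 8.26 TPM in WT shoots (3.00 ± 0.26, adjusted p = 9.84e-08). WRKY33 had 9.82, 23.1, 29.1 and 53.9 TPM in tpst-1 shoots, against 4.26, 4.48, 7.07 and 4.87 TPM in WT shoots (2.55 ± 0.33, adjusted p = 2.02e-05). These 3 spread widely among the tpst-1 libraries, with replicate 4 the highest, as for 8 of the 10 genes that rose. WRKY70 did not, with 17.4, 18.1, 20.02 and 18.7 TPM in tpst-1 shoots, against 3.82, 3.39, 3.37 and 3.57 TPM in WT shoots (2.58 ± 0.36, adjusted p = 4.79e-05). WRKY46 had 2.95, 2.04, 4.71 and 15.2 TPM in tpst-1 shoots, against 1.05, 0.695, 0.976 and 0.823 TPM in WT shoots (2.91 ± 0.50, adjusted p = 0.000415), and without replicate 4 its rise was 2.10.

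The remaining risers had smaller or less spread changes. WRKY22 had 16.7, 14.1, 22.9 and 25.3 TPM in tpst-1 shoots, against 8.21, 6.53, 8.71 and 4.49 TPM in WT shoots (1.65 ± 0.23, adjusted p = 4.75e-05). WRKY48 had 2.07, 3.78, 2.21 and 8.92 TPM in tpst-1 shoots, against 0.707, 0.918, 1.16 and 1.09 TPM in WT shoots (2.21 ± 0.38, adjusted p = 0.000465). WRKY11 had 20.7, 21.9, 19.2 and 32.3 TPM in tpst-1 shoots, against 12.5, 9.71, 11.01 and 8.50 TPM in WT shoots (1.35 ± 0.16, adjusted p = 5.8e-06). No library of one group entered the range of the other in these 3 genes. WRKY17 averaged 10.1 ± 2.48 TPM in tpst-1 shoots and 4.79 ± 0.778 TPM in WT shoots (1.21 ± 0.24, adjusted p = 0.00187). WRKY7 averaged 16.04 ± 4.63 TPM in tpst-1 shoots and 11.2 ± 1.18 TPM in WT shoots with overlapping groups (0.63 ± 0.13, adjusted p = 0.00205), and limma did not call it (adjusted p = 0.145). WRKY53, which fell in roots and seedlings, was at 9.46 TPM in tpst-1 shoots and 6.25 TPM in WT shoots and did not pass (0.74 ± 0.24, adjusted p = 0.0569).

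Removing the receptors in the tpst-1 background lowered 12 of the 27 tested members in shoots and raised WRKY45, where 9.78% of all genes tested fell and 5.18% rose. The 12 included all 10 that rose in tpst-1 over WT, plus WRKY15 and WRKY39. The comparisons share the 4 tpst-1 libraries, so a high tpst-1 value enters both. WRKY18 had 11.005, 13.1, 7.19 and 11.3 TPM in tpst/psyr1,2,3 shoots, against 37.7 to 128 TPM in tpst-1 shoots (log2 fold change -3.12 ± 0.27, adjusted p = 5.75e-08). WRKY22 had 4.29, 4.73, 3.91 and 3.47 TPM in tpst/psyr1,2,3 shoots, against 14.1 to 25.3 TPM in tpst-1 shoots (-2.66 ± 0.25, adjusted p = 1.96e-07). WRKY40 had 2.07, 2.71, 1.10 and 0.827 TPM in tpst/psyr1,2,3 shoots, against 8.36 to 60.7 TPM in tpst-1 shoots (-4.20 ± 0.54, adjusted p = 1.45e-05), or -3.44 without tpst-1 replicate 4. The groups were apart in these 3, in WRKY11 and in WRKY70, and overlapped in the other 8 of the 13 called.

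WRKY33 had 7.06, 12.8, 3.73 and 7.67 TPM in tpst/psyr1,2,3 shoots, against 9.82, 23.1, 29.1 and 53.9 TPM in tpst-1 shoots (-2.18 ± 0.32, adjusted p = 8.24e-05), and tpst-1 replicate 1 alone lay within the range of the other group. WRKY11 had 17.9, 17.9, 15.3 and 15.5 TPM in tpst/psyr1,2,3 shoots, against 19.2 to 32.3 TPM in tpst-1 shoots (-0.88 ± 0.16, adjusted p = 0.000532). WRKY7 had 11.9, 11.8, 10.5 and 10.5 TPM in tpst/psyr1,2,3 shoots, against 10.4, 14.7, 21.2 and 18.0 TPM in tpst-1 shoots (-0.87 ± 0.13, adjusted p = 7.32e-05), and limma put it at an adjusted p of 0.0506. By edgeR all 5 IId genes of the member set fell here. On the log2(TPM + 1) scale limma did not call WRKY7, WRKY15, WRKY17 or WRKY39. Its changes for them were -0.44, -0.67, -0.41 and -0.10. Over all tested members limma called 7 lower and 2 higher in this comparison. WRKY39 was at 28.3 ± 4.25 TPM in tpst/psyr1,2,3 shoots and 30.6 ± 5.41 TPM in tpst-1 shoots (-0.49 ± 0.11, adjusted p = 0.00487), a call lost by limma (adjusted p = 0.548) and with the 2 groups fitted alone (adjusted p = 0.0685). WRKY15 had 20.7, 27.6, 21.2 and 20.5 TPM in tpst/psyr1,2,3 shoots, against 17.8, 29.4, 40.4 and 78.3 TPM in tpst-1 shoots (-1.18 ± 0.24, adjusted p = 0.00184, and 0.0855 by limma), or -0.78 without tpst-1 replicate 4. WRKY46 had 1.64, 3.10, 1.21 and 1.498 TPM in tpst/psyr1,2,3 shoots, against 2.04 to 15.2 TPM in tpst-1 shoots (-2.10 ± 0.46, adjusted p = 0.00352, and 0.0649 with the 2 groups alone), or -1.29 without tpst-1 replicate 4 (adjusted p = 0.0262).

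WRKY70 had 10.3, 16.3, 4.19 and 6.99 TPM in tpst/psyr1,2,3 shoots, against 17.4 to 20.02 TPM in tpst-1 shoots (-1.41 ± 0.34, adjusted p = 0.00652). The tpst/psyr1,2,3 libraries of this gene spread widely while those of tpst-1 did not. WRKY45 had 6.77, 7.97, 1.001 and 3.53 TPM in tpst/psyr1,2,3 shoots, against 0.928, 0.663, 1.44 and 1.62 TPM in tpst-1 shoots (1.60 ± 0.49, adjusted p = 0.0311). That rise was lost without tpst-1 replicate 2, tpst/psyr1,2,3 replicate 1 or tpst/psyr1,2,3 replicate 2 (adjusted p = 0.0652, 0.0938 and 0.123), with the replicate number as a block (0.0594) and with the 2 groups alone (0.123). WRKY48 passed narrowly (-1.03, adjusted p = 0.0497), was at -0.47 without tpst-1 replicate 4, and was lost without tpst-1 replicate 4 or tpst/psyr1,2,3 replicate 1, 3 or 4 (adjusted p up to 0.292), and by limma (0.27), no filter (0.0514), the block (0.0542) and the 2 groups alone (0.231). WRKY17 (-0.74, adjusted p = 0.0369, and -1.14 without tpst/psyr1,2,3 replicate 1) was lost without tpst-1 replicate 1 or 4 or tpst/psyr1,2,3 replicate 2, 3 or 4 (adjusted p up to 0.127), by limma (0.158) and with the 2 groups alone (0.202). With the 2 groups fitted alone 8 members passed in place of 13.

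PSY5 in tpst-1 shoots lowered 7 of the 27 tested members and raised WRKY26 and WRKY45, where 3.84% of all genes tested fell and 1.32% rose. All 7 had risen in tpst-1 over WT, and the comparisons share the tpst-1 libraries. WRKY22 had 5.37, 5.004, 7.26 and 8.57 TPM with PSY5, against 14.1 to 25.3 TPM in tpst-1 shoots (-1.83 ± 0.23, adjusted p = 2.65e-05). WRKY11 had 17.2, 12.4, 16.9 and 14.6 TPM with PSY5, against 19.2 to 32.3 TPM in tpst-1 shoots (-0.88 ± 0.15, adjusted p = 0.00116). WRKY40 had 3.02, 5.03, 3.62 and 6.63 TPM with PSY5, against 8.36 to 60.7 TPM in tpst-1 shoots (-2.59 ± 0.47, adjusted p = 0.00182), or -1.83 without tpst-1 replicate 4 (adjusted p = 0.00869). These 3 calls held under every alternative run and their groups did not overlap, while each of the other 6 calls was lost under at least 1 alternative. Without PSY5 replicate 1, 2 or 3 the number of members called was 5, 4 and 5 in place of 9.

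WRKY18 had 36.7, 39.4, 32.7 and 34.5 TPM with PSY5, against 47.9, 37.7, 70.9 and 128 TPM in tpst-1 shoots (-1.20 ± 0.24, adjusted p = 0.00419), but 0.0984 by limma and 0.0787 with the 2 groups alone. WRKY70 had 9.07, 9.54, 11.4 and 6.35 TPM with PSY5, against 17.4 to 20.02 TPM in tpst-1 shoots (-1.30 ± 0.33, adjusted p = 0.0235), and was lost by limma (0.0931), without tpst-1 replicate 1 (adjusted p = 0.052) or without PSY5 replicate 1, 2 or 4 (adjusted p up to 0.0778). WRKY46 had 1.88, 2.65, 1.79 and 2.46 TPM with PSY5, against 2.04 to 15.2 TPM in tpst-1 shoots (-1.72 ± 0.45, adjusted p = 0.0258), and without tpst-1 replicate 4 the change was -0.91 (adjusted p = 0.143). That call was also lost without any 1 PSY5 library (adjusted p up to 0.0825), by limma (0.168) and with the 2 groups alone (0.177). WRKY17 passed at 0.0481 and was lost without tpst-1 replicate 1, 2 or 4 or any 1 PSY5 library (adjusted p up to 0.111) and by limma (0.191). WRKY26 had 7.12, 14.8, 9.22 and 7.92 TPM with PSY5, against 1.33, 2.71, 2.51 and 5.47 TPM in tpst-1 shoots (1.43 ± 0.38, adjusted p = 0.0321), and WRKY45 had 4.26, 6.68, 5.33 and 3.08 TPM with PSY5, against 0.928, 0.663, 1.44 and 1.62 TPM in tpst-1 shoots (1.77 ± 0.49, adjusted p = 0.0366). Neither pair of groups overlapped, yet WRKY26 was lost without tpst-1 replicate 1, 2 or 3 or PSY5 replicate 2 or 3 (adjusted p up to 0.138) and with the 2 groups alone (0.073). WRKY45 was lost without tpst-1 replicate 2 or 3 or PSY5 replicate 1, 2 or 3 (adjusted p up to 0.123) and with the block (0.0632). WRKY33 and WRKY7 did not pass (-0.996 ± 0.31, adjusted p = 0.0611, and -0.39 ± 0.13, adjusted p = 0.0718).

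**Figure D4:**
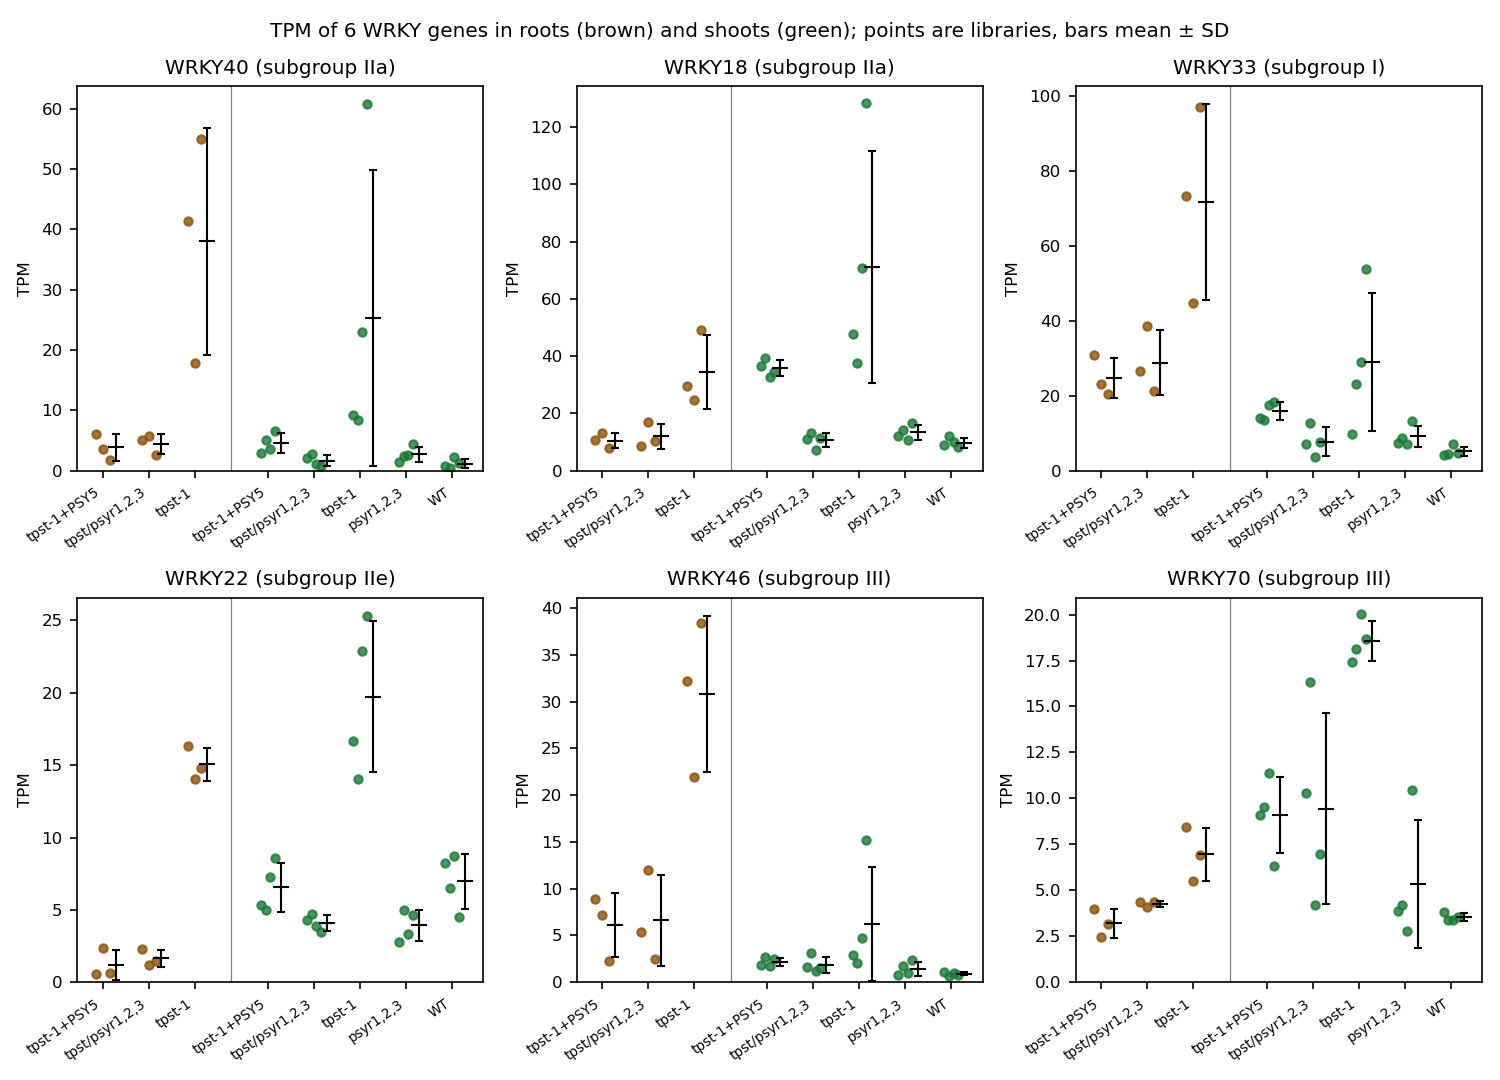
TPM of 6 members in root (brown) and shoot (green) groups (points are libraries, bars mean ± SD, n = 3 in roots and 4 in shoots). The tpst-1 group is the highest in each panel and tissue, and in shoots its spread is wide for WRKY18, WRKY33, WRKY40 and WRKY46 and narrow for WRKY70, at 17.4 to 20.02 TPM.

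Against WT, PSY5-treated tpst-1 shoots had 8 members higher and 0 lower, where 5.1% of all genes tested passed and 3.54% rose. WRKY18 averaged 35.8 ± 2.87 TPM with PSY5 and 9.85 ± 1.73 TPM in WT shoots (1.80 ± 0.26, adjusted p = 0.00025). WRKY60, called in no other comparison, averaged 7.52 ± 1.96 TPM with PSY5 and 1.64 ± 0.961 TPM in WT shoots (2.09 ± 0.44, adjusted p = 0.00658). WRKY26, WRKY6, WRKY33, WRKY48, WRKY45 and WRKY70 rose too, by 2.18, 1.29, 1.56, 1.75, 2.21 and 1.27 on the log2 scale. Of the 10 genes that rose in tpst-1, WRKY18, WRKY33, WRKY48 and WRKY70 were among these 8, and WRKY7, WRKY11, WRKY17, WRKY22, WRKY40 and WRKY46 were not. The WRKY70 call was lost by limma (adjusted p = 0.054), with the block (0.0566) and without any 1 WT library or PSY5 replicate 1, 2 or 3 (up to 0.134). Against WT the tpst/psyr1,2,3 shoots had 1 member higher, WRKY45 (2.04 ± 0.52, adjusted p = 0.0177), and 1 lower, WRKY22, at 4.10 ± 0.539 TPM in tpst/psyr1,2,3 and 6.99 ± 1.91 TPM in WT shoots (-1.004 ± 0.25, adjusted p = 0.0162), where 7.04% of all genes passed, 3.6% higher and 3.45% lower. Both pairs of groups overlapped. WRKY45 was lost without WT replicate 2 or tpst/psyr1,2,3 replicate 1 or 2 (adjusted p up to 0.0766), and WRKY22 by limma (0.0861) and without WT replicate 1 or 3 or tpst/psyr1,2,3 replicate 4 (up to 0.0635). Without tpst/psyr1,2,3 replicate 3, 6 members passed in place of 2. In psyr1,2,3 shoots WRKY22 alone passed, at 3.93 ± 1.07 TPM against 6.99 ± 1.91 TPM in WT shoots (-0.98 ± 0.25, adjusted p = 0.046), where 0.927% of all genes fell and 0.893% rose. At an unadjusted p under 0.05 there were 3 members with edgeR and 4 each with DESeq2 and limma. The call was lost by limma (adjusted p = 0.106), with the replicate number as a block (adjusted p = 0.0792) and without WT replicate 1, 2 or 3 or any 1 psyr1,2,3 library (adjusted p up to 0.172).

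Between tpst/psyr1,2,3 and PSY5-treated tpst-1 shoots WRKY18 alone passed, at 10.6 ± 2.48 TPM after receptor loss and 35.8 ± 2.87 TPM with PSY5 (-1.92 ± 0.26, adjusted p = 0.000356), and its groups were apart. Of all genes 1.29% passed. Without tpst/psyr1,2,3 replicate 2, 2 members passed. The tpst effect was then asked to differ by receptor state, as the change of tpst/psyr1,2,3 over psyr1,2,3 minus that of tpst-1 over WT. It was lower with the receptors lost for 5 of 27 tested members, where 2.77% of all genes passed and 2.42% were lower. The differences were -3.44 ± 0.37 for WRKY18 (adjusted p = 8.47e-06), -5.29 ± 0.80 for WRKY40 (adjusted p = 0.00038, or -4.53 without tpst-1 replicate 4), -2.86 ± 0.46 for WRKY33 (adjusted p = 0.000772), -1.68 ± 0.35 for WRKY22 (adjusted p = 0.00774) and -0.84 ± 0.23 for WRKY11 (adjusted p = 0.0455). WRKY18 averaged 10.6 TPM in tpst/psyr1,2,3 and 13.4 TPM in psyr1,2,3 shoots, and 71.2 TPM in tpst-1 and 9.85 TPM in WT shoots. The WRKY11 call was lost on leaving out any 1 of 13 libraries (adjusted p up to 0.115), by limma (0.293), with the block (0.0544) and with the 4 groups alone (0.0826). Without tpst-1 replicate 2 the number of members passing was 8, and without tpst-1 replicate 1, 3 or 4 it was 7, 6 and 5.

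Touch-inducible genes moved with the members in shoots as well. All 5 rose in tpst-1 over WT and all 5 fell in tpst/psyr1,2,3 over tpst-1, while 4 fell with PSY5. Their summed level was 230.1 to 311 TPM in PSY5-treated tpst-1, 91.5 to 189 TPM in tpst/psyr1,2,3, 473 to 881 TPM in tpst-1, 116 to 169.8 TPM in psyr1,2,3 and 104 to 162 TPM in WT shoots. All 5 were also lower in the test of tpst by receptor state. ZAT12 was the lowest of them, at 1.09 TPM on average in tpst/psyr1,2,3 shoots with at least 1 library at 0, and at 0.847 TPM in WT shoots. Clock genes were at 156 to 174 TPM in tpst-1 shoots other than replicate 1 and 177 to 194 TPM in WT shoots, and 2 of 9 fell. With receptor loss 1 clock gene rose and 2 fell, at 175 to 195 TPM in tpst/psyr1,2,3 shoots, and with PSY5 0 of 9 passed. Photosynthesis genes did not pass in tpst-1 over WT, 4 of 5 fell with receptor loss, 2 of 5 fell with PSY5 and 4 of 5 fell in tpst/psyr1,2,3 over WT. Their summed level was 30353 to 33157 TPM in PSY5-treated tpst-1, 33098 to 36300 TPM in tpst/psyr1,2,3, 35986 to 40716 TPM in tpst-1 and 38898 to 42039 TPM in WT shoots. The root gene PYK10 summed with 4 others to 75.4 to 183 TPM in tpst-1 and 234 to 288 TPM in WT shoots, with EXPA7 and COBL9 at 0 in all WT libraries. The part of handling, harvest time or carry-over in the shoot results was not tested.

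**Figure D5:**
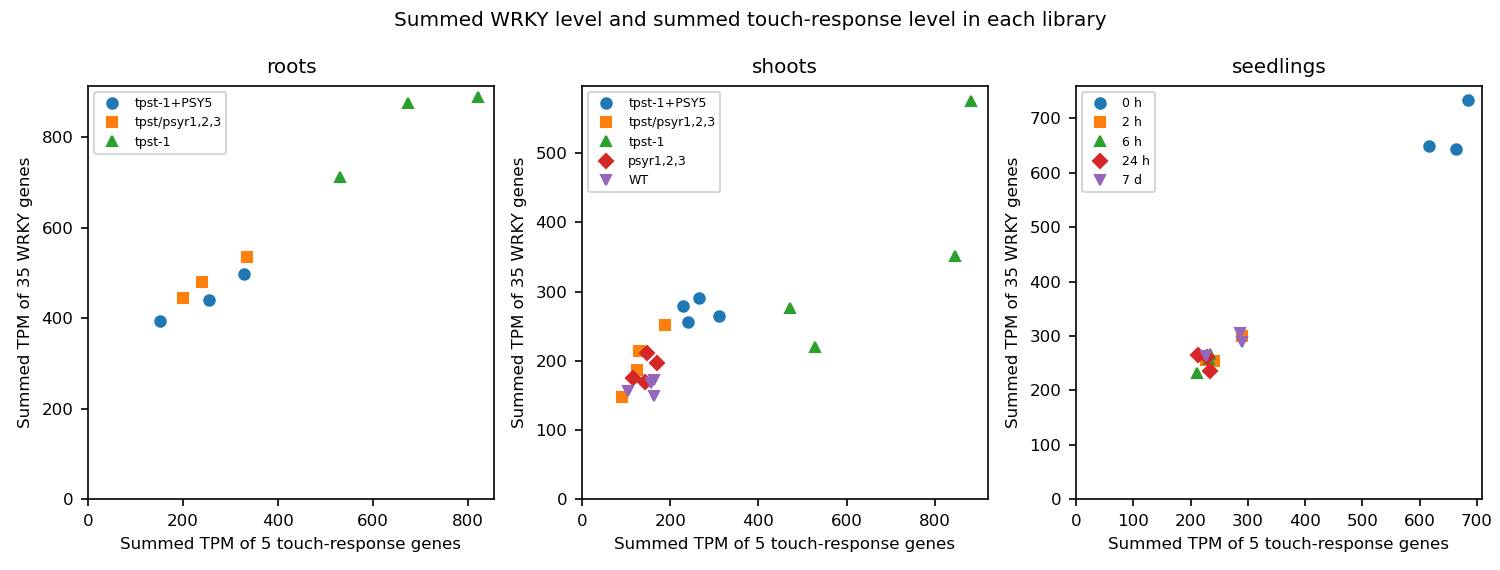
Summed TPM of the 35 members (vertical) against summed TPM of the 5 touch-inducible genes (horizontal) in each library of roots, shoots and seedlings. The tpst-1 root libraries and the 0 h seedling libraries lie to the upper right, at 530.4 TPM or more and 616 TPM or more of touch genes. In shoots the tpst-1 libraries lie to the right. By summed member level, PSY5-treated shoots range from 256 to 290.3 TPM. Replicate 1 of tpst-1, at 220.4 TPM, lies below that range and replicate 2, at 276 TPM, within it. The libraries of a panel share tissue and scaling, so the plot is a description.

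Roots and shoots were compared by testing the difference of the 2 effects in one fit of both tissues. The effect of PSY5 in shoots minus that in roots was positive for 3 of 33 tested members and negative for 0, where 3.31% of all 23144 genes passed and 1.21% were positive. WRKY48 fell by 2.45 in roots and had -0.46 ± 0.34 in shoots (difference 1.97 ± 0.48, adjusted p = 0.0186). WRKY53 fell by 2.08 in roots and had -0.28 ± 0.23 in shoots (difference 1.76 ± 0.50, adjusted p = 0.0477). WRKY38, the third, is not read as a difference between tissues: it failed the shoot filter and entered the fit through roots, with 0.201, 0.511, 1.59 and 0.473 TPM in PSY5-treated shoots and 0.0841, 0, 0 and 0.133 TPM in tpst-1 shoots, the tpst-1 values resting on 3.90 reads in all. Each call was lost without a single library: WRKY48 without tpst-1 root replicate 3 or PSY5 root replicate 2 (adjusted p = 0.0738 and 0.0768), WRKY38 without tpst-1 root replicate 1 or PSY5 shoot replicate 3 (adjusted p = 0.053 and 0.0672), and WRKY53, at 2.48 without PSY5 root replicate 1, without any of 10 libraries (adjusted p up to 0.2), with the block (0.0643) and with median-of-ratios factors (0.0504). Without tpst-1 root replicate 1 or 3 or PSY5 shoot replicate 3, 1 member passed in place of 3, and without tpst-1 shoot replicate 4, 6 passed.

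For receptor loss the difference was positive for WRKY53 (1.99 ± 0.54, adjusted p = 0.0268) and WRKY23 (1.41 ± 0.40, adjusted p = 0.035), and negative for WRKY39 (-0.71 ± 0.16, adjusted p = 0.00721) and WRKY18 (-1.58 ± 0.45, adjusted p = 0.037), where 5.16% of all genes passed. WRKY18 was lowered by 3.12 in shoots and by 1.55 in roots. WRKY23 read 0.758 to 1.48 TPM in tpst-1 shoots and 15.9 to 20.7 TPM in tpst-1 roots. Its shoot change rests on levels near the filter of 1 TPM and did not pass in shoots alone. Of the 4, WRKY39 held without each library, with an adjusted p of 0.239 by limma. WRKY53 was lost without tpst-1 root replicate 1 or 3 or tpst/psyr1,2,3 root replicate 1 or 3 (adjusted p up to 0.102), WRKY23 without any 1 of 8 libraries (up to 0.0917) and with the block (0.0538), and WRKY18 without any 1 of 7 (up to 0.188), by limma (0.0992) and with the block (0.0524). Without tpst-1 root replicate 1 or 3, 1 and 2 members passed in place of 4, and without tpst/psyr1,2,3 root replicate 1 or 3, 2 and 1.

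Levels themselves differed by tissue, although roots and shoots may have been prepared with different library kits and the labels do not say which. In tpst-1 roots the order began with WRKY17 at 100.3 ± 9.18 TPM, WRKY11 at 92.0 ± 7.42 TPM, WRKY33 at 71.8 ± 26.3 TPM and WRKY15 at 68.2 ± 1.77 TPM, of which WRKY17 and WRKY11 overlapped and WRKY33 spread across both. In tpst-1 shoots WRKY18 led at 71.2 ± 40.5 TPM, and in WT shoots WRKY15 and WRKY39 led at 29.0 ± 4.58 and 28.6 ± 2.49 TPM, within each other's spread. At 0 h in seedlings WRKY70 led at 115 ± 14.8 TPM, before WRKY33 at 98.9 ± 6.62 TPM and WRKY18 at 89.5 ± 5.89 TPM. WRKY51 had at most 1.28 TPM in any shoot library and averaged 5.94 TPM in tpst-1 roots, and WRKY72 had at most 0.381 TPM and averaged 13.7 TPM. WRKY41 and WRKY50 were the reverse, at 4.02 and 1.58 TPM in tpst-1 shoots and 0.136 and 0.256 TPM in tpst-1 roots.

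Over all 17 comparisons 8 members were called in none: WRKY29, WRKY30, WRKY31, WRKY41, WRKY42, WRKY47 and WRKY50, and the untested WRKY55. A set of 9 (WRKY7, WRKY11, WRKY17, WRKY18, WRKY22, WRKY33, WRKY40, WRKY46 and WRKY48) fell in both root comparisons, in tpst/psyr1,2,3 shoots and at all 4 seedling times, and rose in tpst-1 shoots. Several of these comparisons share a tpst-1 or 0 h group. How many of all genes tested met the same conditions was not counted, so the set is not shown to be particular to WRKY members. Reads of 5 members, WRKY29, WRKY33, WRKY40, WRKY41 and WRKY53, may include some from genes that overlap them on the opposite strand. The sources used here do not say whether counting used strand, and the length of each overlap was not measured. AT2G08965, a long non-coding RNA that overlaps WRKY33, was at 0 in every root and WT shoot library, and averaged 5.12 ± 6.26 TPM in tpst-1 shoots. In seedlings it averaged 6.79 ± 7.78 TPM at 0 h, 1.39 ± 2.40 TPM at 2 h, 3.13 ± 2.72 TPM at 6 h, 0 TPM at 24 h and 1.33 ± 2.31 TPM at 7 d, and its part in the WRKY33 values was not tested. AT2G38480, which also overlaps WRKY33, was at 11.8 ± 2.54 TPM with PSY5 and 10.2 ± 1.17 TPM in tpst-1 roots, and AT1G80850, which overlaps WRKY40, was at 5.39 ± 2.46 TPM with PSY5 and 8.77 ± 0.881 TPM in tpst-1 roots. AT4G23800, which overlaps WRKY53, was more abundant than it. In roots AT4G23800 was at 72.6 ± 1.15 TPM with PSY5, 70.1 ± 4.47 TPM after receptor loss and 87.4 ± 2.10 TPM in tpst-1. In shoots it went the other way, at 59.6 ± 3.38 TPM with PSY5, 75.0 ± 7.8 TPM after receptor loss and 45.7 ± 8.62 TPM in tpst-1. Its part in the WRKY53 values, the shoot minus root differences among them, was not tested.

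Genes around the WRKY factors were read from lists. Of all genes tested 7.69% fell with PSY5 in roots, 7.07% rose in tpst-1 shoots and 9.78% fell in tpst/psyr1,2,3 over tpst-1 shoots. In seedlings 8.01%, 8.56%, 8.63% and 10.8% of all genes fell at 2 h, 6 h, 24 h and 7 d. VQ proteins bind WRKY factors: SIB1, a WRKY33 partner, fell with PSY5 in roots (-1.77 ± 0.36, adjusted p = 0.00102), as did MKS1, which ties WRKY33 to MPK4 (-1.17 ± 0.24, adjusted p = 0.00127), 2 of 6 tested. In tpst-1 shoots 4 of 7 rose, SIB1 by 2.804 ± 0.38 (adjusted p = 3.45e-05), with SIB2, VQ10 and MKS1, and 4 of 7 fell in tpst/psyr1,2,3 shoots. The VQ median was -0.66 in roots with PSY5 and 0.96 in tpst-1 shoots, and 4, 5, 4 and 4 of 7 fell at 2 h, 6 h, 24 h and 7 d, while SIB2 rose at 7 d (0.39 ± 0.12, adjusted p = 0.0184).

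Of 9 MAP kinase cascade genes 4 fell with PSY5 in roots, 3 rose in tpst-1 shoots and 3 fell in tpst/psyr1,2,3 shoots. MPK3, which phosphorylates WRKY33, averaged 28.7 ± 6.14 TPM with PSY5 and 66.2 ± 19.0 TPM in tpst-1 roots (-1.19 ± 0.16, adjusted p = 1.25e-05). MKK9 averaged 46.2 ± 14.3 TPM in tpst-1 shoots and 8.95 ± 0.830 TPM in WT shoots (2.52 ± 0.19, adjusted p = 1.61e-08), and fell to 9.55 ± 1.46 TPM at 2 h in seedlings, against 44.5 ± 2.97 TPM at 0 h (-2.27 ± 0.14, adjusted p = 6.57e-11). The list's median log2 fold change was -0.40 in roots with PSY5 and 0.16 in tpst-1 shoots. In seedlings 3, 3, 3 and 5 of the 9 fell at 2 h, 6 h, 24 h and 7 d, and 1 rose at 6 h and at 24 h. The list's medians at those times were -0.17, -0.15, -0.16 and -0.24.

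Among 19 immune and senescence genes, 6 of 12 tested fell with PSY5 in roots and 7 of 14 tested rose in tpst-1 shoots. In tpst/psyr1,2,3 over tpst-1 shoots 5 of the 14 fell and 1 rose, with a median log2 fold change of -0.06. Against WT 6 of the 14 were higher in PSY5-treated tpst-1 shoots and 5 in tpst/psyr1,2,3 shoots, where 3.54% and 3.6% of all genes rose. PAD3, the last enzyme of camalexin synthesis and a WRKY33 target, averaged 31.2 ± 0.709 TPM with PSY5 and 65.9 ± 4.65 TPM in tpst-1 roots (-1.04 ± 0.09, adjusted p = 2.69e-08). ACS6, an ethylene synthesis enzyme, averaged 26.1 ± 9.63 TPM in tpst-1 shoots and 4.07 ± 0.179 TPM in WT shoots (2.79 ± 0.18, adjusted p = 2.68e-09). In seedlings 6, 6, 13 and 14 of 15 tested fell at 2 h, 6 h, 24 h and 7 d, led at 7 d by SARD1 (-1.49 ± 0.15, adjusted p = 3.67e-07) and SAG13 (-1.80 ± 0.26, adjusted p = 3.28e-05). Not all went one way: SAG13 averaged 14.6 ± 4.22 TPM in PSY5-treated tpst-1 shoots and 3.75 ± 1.82 TPM in tpst-1 shoots (1.78 ± 0.46, adjusted p = 0.0257), a rise.

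The other WRKY genes were counted in the same way. With PSY5 in roots 4 of 26 tested fell and 1 rose, among them WRKY74 (-1.80 ± 0.31, adjusted p = 0.000197) and WRKY9 (-1.04 ± 0.19, adjusted p = 0.000371), with WRKY69 higher (0.58 ± 0.15, adjusted p = 0.0102). In tpst-1 shoots 0 of 20 passed. In seedlings 3 or 4 of 22 fell at each time, WRKY21 at every one of them. No test compared these counts with those of the members.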

How the data were processed

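Per the labels' protocols total RNA was extracted with an RNeasy kit and sequenced from TruSeq v2 or NEBNext Ultra II libraries, without saying which sample had which. Per the file headers the deposited files give TPM and the number of reads per gene. The read numbers deposited by the authors are expected counts with fractions. The build is TAIR10 per the submitters' processing notes, and no source used here names the program that counted reads.

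Expected counts were rounded and tested with edgeR 4.0.16 in R 4.3.3 (TMM, quasi-likelihood F test, trended dispersion), all groups of a tissue in 1 fit and roots with shoots in a joint fit. Adjusted p-values are edgeR's unless another tool is named, by Benjamini and Hochberg over all genes tested (19958 in roots, 20723 in shoots, 21069 in seedlings, 23144 in the joint fit). The tests were checked on simulated counts. Alternatives were median-of-ratios factors, no filter, the compared groups alone, DESeq2 1.42.0, limma 3.58.1 on log2(TPM + 1), the replicate number as a block and each library left out. Members are the loci given for this gene set. Values of each library are given for the called members of lowest adjusted p, at most 8, and 1 of each subgroup per main comparison, and other lists gave up to 4 called genes. A few further members are shown by library after their values were seen. Members and lists were chosen with earlier results of these data known. The W-box forms TTGACC and TTGACT were counted on both strands in TAIR10.1 with the RefSeq annotation. Figures used matplotlib 3.10.9.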

Additional observations from a re-analysis of the deposited data

Results flagged for a closer look

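In 70 groups of 4 shoot libraries, over the 14 members called in the main shoot comparisons, 3 groups had a library set apart from the other 3 by Dixon's test, where chance flags about 1 group in 20. WRKY15 read 27.6 TPM in 1 tpst/psyr1,2,3 shoot library, with the nearest other at 21.2 TPM. WRKY17 read 7.33 TPM in 1 PSY5-treated tpst-1 shoot library, nearest other 6.65 TPM, and 6.88 TPM in 1 psyr1,2,3 shoot library, nearest other 5.46 TPM.

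The effect of tpst differed with the receptors lost or present in 5 members by the interaction term, at -2.86 for WRKY33 (edgeR adjusted p = 0.000772), -3.44 for WRKY18 (8.47e-06), -5.29 for WRKY40 (0.00038), -0.84 for WRKY11 (0.0455) and -1.68 for WRKY22 (0.00774) on the log2 scale.

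The effect of PSY5 differed between shoots and roots by 1.97 for WRKY48 (edgeR adjusted p = 0.0186), 5.27 for WRKY38 (0.0172) and 1.76 for WRKY53 (0.0477). The WRKY38 value is no measure of size, since that gene entered through roots and had 3.90 reads in all over the 4 tpst-1 shoot libraries, 2 of them at 0 TPM. The effect of receptor loss differed by -1.58 for WRKY18 (edgeR adjusted p = 0.037), 1.41 for WRKY23 (0.035), -0.71 for WRKY39 (0.00721) and 1.99 for WRKY53 (0.0268). WRKY23 lay at 0.758 to 1.48 TPM in tpst-1 shoots, near the filter.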

How the results depend on the processing

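Of 170 member calls, 130 were kept under every alternative run and 40 were lost under at least 1, 33 of them on leaving out 1 library, and 0 reversed. Limma on log2(TPM + 1) lost 21, the replicate block 10, the compared groups alone 9 of 163, and median-of-ratios factors, no filter and DESeq2 lost 1 each. Numbers of called members moved by more than 1.5 times as follows. In psyr1,2,3 shoots 1 became 2 with the groups alone, 0 with limma and 0 with the block. PSY5 in shoots had 9, and 5 with limma. Receptor loss in shoots had 13, and 8 with the groups alone. PSY5 against WT had 8, and 14 alone. The quadruple mutant against WT had 2, and 6 with DESeq2, 7 alone and 4 with limma. Receptor loss against PSY5 in shoots had 1, and 3 with DESeq2 and 7 alone. The interaction had 5, and 8 with DESeq2. Shoot minus root had 3 for PSY5, and 7 with limma, and 4 for receptor loss, and 2 with the block. The causes were not tested. DESeq2 gave no adjusted p to members for receptor loss against PSY5 in roots.

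Leaving out 1 library each, members called ranged over 14 to 15 (root PSY5), 13 to 14 (root receptor loss), 0 to 0 (the 2 against each other), 10 to 12 (shoot tpst-1), 0 to 1 (psyr1,2,3), 4 to 9 (shoot PSY5), 11 to 14 (shoot receptor loss), 7 to 9 (PSY5 against WT), 1 to 6 (quadruple against WT), 1 to 2 (receptor loss against PSY5 in shoots), 4 to 8 (interaction), 16 to 17, 20 to 23, 19 to 22 and 21 to 24 (2 h, 6 h, 24 h and 7 d), and 1 to 6 and 1 to 4 (shoot minus root, PSY5 and receptor loss).

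Counts over all genes moved too. With DESeq2 1871 passed against 3035 (root PSY5), 1866 against 3073 (root receptor loss), 800 against 377 (psyr1,2,3) and 533 against 267 (shoot receptor loss against PSY5). With the groups alone 805 passed against 1908 (shoot tpst-1), 377 against 1069 (shoot PSY5), 1065 against 3100 (shoot receptor loss), 2388 against 1057 and 2673 against 1459 (PSY5 and quadruple against WT), 1031 against 377 (psyr1,2,3) and 1017 against 267 (shoot receptor loss against PSY5). With limma 1052 passed against 1908 (shoot tpst-1), 577 against 1069 (shoot PSY5), 6820 against 3100 (shoot receptor loss), 274 against 575 (interaction), 124 against 267 and 17 against 107 (receptor loss against PSY5 in shoots and roots), 1227 against 767 and 2836 against 1194 (shoot minus root). With no filter 253 passed against 107 (roots, receptor loss against PSY5).

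Replicate numbers did not pair the samples: libraries of the same number had a median correlation of deviations of 0.013 in roots, 0.0017 in shoots and -0.0146 in seedlings, none over 0.108. Roots held the fewest reads, which limits members near 1 TPM.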

Other observations

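Whole tpst-1 seedlings at 0 h did not always lie between the organs of the same labelled genotype. In 5 of the 35 members all 3 libraries at 0 h were above all tpst-1 root and shoot libraries, and in the other 30 they overlapped or lay within the range of the organs. WRKY70 read 105 to 132 TPM in seedlings, 5.52 to 8.42 TPM in roots and 17.4 to 20.02 TPM in shoots. WRKY53 read 30.8 to 32.7 TPM in seedlings, 10.5 to 20.7 TPM in roots and 5.57 to 17.6 TPM in shoots. WRKY62, WRKY30 and WRKY50 were the other 3, at 1.90 to 3.30, 2.61 to 5.57 and 2.07 to 3.38 TPM in seedlings. The labels do not say whether organs and seedlings were grown, harvested or sequenced together, and the origin of these differences was not tested.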
